A study of Mus musculus with 22 samples.

Results

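The 10 apolipoprotein genes Apoe, Apoa1, Apoa2, Apoa4, Apob, Apoc1, Apoc3, Apod, Apoh and Apom were taken by name from the 31053 genes of the count tables and followed across 22 single-cell libraries of mice. Apolipoproteins are the protein parts of lipoprotein particles, which carry cholesterol and triglycerides between organs through blood and lymph. Hepatocytes make most of the plasma pool, the intestine adds Apoa1, Apoa4 and Apob, and some members are made elsewhere: Apoe, a ligand for the uptake of lipoprotein particles by cells, is made in quantity by macrophages, Apod, a lipocalin that carries small hydrophobic molecules, by fibroblasts, and Apom, a lipocalin that carries sphingosine 1-phosphate, by liver and kidney tubules. Because hepatocytes release their abundant transcripts when tissue is dissociated, a droplet that holds another cell can show such a transcript without its cell having made it.

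The study asked whether loss of the sodium leak channel gene Nalcn releases cells from solid organs into the blood of mice without tumours. Its libraries held circulating blood cells sorted for the ZsGreen tag (ntCZC), solid organs of such mice combined in each library by antibody hashtags (tissue), and peripheral blood mononuclear cells (PBMC). All mice carried the Rosa26ZSG reporter and Prom1-CreERT2, a tamoxifen-inducible recombinase driven by the promoter of the stem cell gene Prom1. By design the tag marks cells of the Prom1 lineage. Whether each sorted barcode came from such a cell was not tested here. They were Nalcn wild type (wt; Prom1-CreERT2;Rosa26ZSG), heterozygous (het; Prom1-CreERT2;Rosa26ZSG;Nalcn-het) or null (Prom1-CreERT2;Rosa26ZSG;Nalcn-null). According to the paper the Nalcn allele was conditional and the recombinase was activated with tamoxifen. The terms het and null therefore name the mouse and not each of its cells. Which barcodes had lost Nalcn was not tested here. Of ntCZC, 2 libraries were wt, 4 het and 4 null. Of tissue, 5 were wt, 2 het and 2 null, and the PBMC library was wt. Mice were 551 to 654 days old, apart from the PBMC donor at 120 days. Tissue libraries combined kidney, liver, lung and stomach with epididymis (males) or uterus (females). The hashtag counts were not used here, so the organ of a barcode is not known, and cell classes were gated on marker genes, none of which was a member. The labels do not say whether libraries came from different mice, so p-values measure the spread between libraries.

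The 10 ntCZC libraries held 2501 barcodes and 161541 to 2600526 UMIs each (unique molecular identifiers, each a captured transcript), and the 9 tissue libraries with a group 143502 barcodes and 8571019 to 139793927 UMIs each. A filter of 200 or more genes and a mitochondrial share of UMIs up to 25% left 2109 and 72758 barcodes, of which 1701 and 37594 fell into a class. The genotype in the title contradicted the strain label of 2 further tissue libraries, which entered no comparison. Tissue null replicate 3, labelled female, held Y-linked transcripts (31.2 CPM, counts scaled to a total of 1000000) and 439 epididymal-like barcodes. Xist, a transcript of female cells, stood at 1347 CPM in it. The library was kept in its group and fitted as female. In ntCZC wt replicate 3, 14.3% of barcodes passed the filter, and in tissue wt replicate 5, 15.5%. Nalcn itself gave 0 UMIs in every ntCZC library and 0 to 18 in each tissue library with a group, so its counts could not check the genotypes. Libraries shared at most 2.60% of the barcodes of the smaller library, and no 2 libraries of a group agreed within sampling noise (lowest chi-square per degree of freedom 5.56 over 25 pairs).

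Some members lie side by side in the genome (mm10). Apoc1 (chr7:19689481-19692660, minus strand) ended 3448 bases from Apoe (chr7:19696109-19699188, minus strand). On chromosome 9, Apoa1 (chr9:46228580-46230466, plus strand) was followed after 2466 bases by Apoc3 (chr9:46232933-46235636, minus strand) and after a further 5059 bases by Apoa4 (chr9:46240696-46243459, plus strand). The remaining members stood alone: Apoa2 (chr1:171225054-171226379), Apob (chr12:7977648-8016835), Apod (chr16:31296192-31314808), Apoh (chr11:108343354-108414396) and Apom (chr17:35128997-35132050).

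The upstream sequences of 4 members with contrasting class patterns are shown (RefSeq, GRCm38.p6, strand of the gene, 5′ to 3′): Apoe, highest in macrophage-like barcodes, Apod, highest in fibroblast-like ones, Apob, high in kidney tubule as well as liver, and Apoa2, highest in hepatocyte-like ones. They cover chr7:19699189-19699438 (minus), chr16:31314809-31315058 (minus), chr12:7977427-7977647 (plus) and chr1:171224804-171225053 (plus). Capitals mark matches to TATAAA (the TATA box core) or TTGCNNAA (a C/EBP type site).
Apoe: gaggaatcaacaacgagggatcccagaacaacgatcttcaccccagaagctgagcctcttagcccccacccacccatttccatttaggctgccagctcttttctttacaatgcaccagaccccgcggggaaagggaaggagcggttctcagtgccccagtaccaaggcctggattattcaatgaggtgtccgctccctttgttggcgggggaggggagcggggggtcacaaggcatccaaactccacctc
Apod: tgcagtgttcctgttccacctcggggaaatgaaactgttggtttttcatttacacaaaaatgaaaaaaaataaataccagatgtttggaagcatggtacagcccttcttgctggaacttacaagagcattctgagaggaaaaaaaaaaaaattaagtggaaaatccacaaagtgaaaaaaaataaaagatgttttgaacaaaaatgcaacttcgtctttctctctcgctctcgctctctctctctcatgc
Apob: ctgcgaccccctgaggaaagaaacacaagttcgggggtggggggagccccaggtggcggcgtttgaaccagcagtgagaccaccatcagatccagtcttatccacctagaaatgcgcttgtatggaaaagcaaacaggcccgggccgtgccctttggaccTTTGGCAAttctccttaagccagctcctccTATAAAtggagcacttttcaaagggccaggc
Apoa2: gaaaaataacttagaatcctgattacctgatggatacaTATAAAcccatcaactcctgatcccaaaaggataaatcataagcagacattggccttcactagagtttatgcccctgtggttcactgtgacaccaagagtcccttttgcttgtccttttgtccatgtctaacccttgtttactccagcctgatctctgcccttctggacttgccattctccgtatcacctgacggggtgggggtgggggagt
Both strands were searched for the TATA box core and the C/EBP type site, and also for GTTAAT, the core of an HNF1 type site, and for AGGTCA, a nuclear receptor type site. Apob held TATAAA 31 bases and TTGCNNAA 61 bases before the end of its window, and Apoa2 held TATAAA 212 bases before the end. The Apoe and Apod windows held no match to the 4 motifs. Nor did the window of Apoa1, a hepatocyte-type member that was also searched and is not shown. Of 32851 promoter windows of 250 bases, 12.4% held TATAAA, 6.43% GTTAAT, 14.0% AGGTCA and 9.56% TTGCNNAA.

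In whole libraries, Apoe was higher in ntCZC than in tissue, and 6 members were lower. Apoe reached 3478 and 607 CPM in the wt, 6434, 5727, 7154 and 2640 CPM in the het and 8730, 4140, 2964 and 2401 CPM in the null ntCZC libraries (mean 4427 ± 2510, SD, n = 10). The tissue libraries ranged from 403 to 2368 CPM with a median of 1249 (1345 ± 621, n = 9), and the PBMC library held 181 CPM. All ntCZC libraries but wt replicate 3 lay above every tissue library. The fitted difference was 1.58 on the log2 scale (SE 0.37, adjusted p = 0.00091, edgeR quasi-likelihood test with sex as a covariate), or 3.00-fold, and 1.71 without ntCZC wt replicate 3. Of all 10681 genes tested, 28.5% were called higher in ntCZC. A whole-library value cannot tell fewer cells of a type from less RNA per cell.

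The lower members were Apoc1 (an exchangeable apolipoprotein and inhibitor of lipase and receptor binding), Apoa1 and Apoa2 (the main proteins of HDL), Apoc3 (an inhibitor of lipoprotein lipase), Apob (the structural protein of VLDL and LDL) and Apom. Over all genes 36% were called lower. Apart from Apoc1, these members passed the filter on low counts only through tissue, so a lower call was fixed by the filter and nothing is read from their number. Apoc1 ranged from 0 to 79.8 CPM over the ntCZC libraries (median 17.5) and from 15.8 to 171 CPM over the tissue libraries (median 90.7), and the ranges overlapped (log2 difference -1.97, SE 0.64, adjusted p = 0.011, edgeR). The other fitted log2 differences, from -4.92 for Apoa2 to -8.85 for Apom, rested on 1 to 32 ntCZC UMIs. Without ntCZC wt replicate 3 that of Apoa2 was -7.50 and that of Apoc3 -8.45, and without ntCZC het replicate 3 that of Apom was -12.9. With DESeq2 in place of edgeR, Apoa2 lost its call (adjusted p = 0.11) and Apob received no adjusted p. The split of calls over all genes depended on scaling: 44.1% of called genes were higher in ntCZC with TMM factors, 31.7% with DESeq2-type size factors in edgeR and 32.7% in DESeq2, and the median of all genes moved from -0.08 to -0.30. Apoe was higher under each, by 1.38 on the log2 scale with either of the latter 2.

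Members other than Apoe and Apoc1 were almost absent from ntCZC. Over all 10 libraries Apoa2 gave 32 UMIs, Apoa1 11, Apoc3 7, Apob 3, and Apod, Apoh and Apom 1 each. Of these, ntCZC wt replicate 3 alone held 24 of Apoa2, 6 of Apoa1, 6 of Apoc3, 2 of Apob and the single Apoh UMI. Barcodes under 200 genes held 84.4% of the Apoa2 UMIs, 81.8% of the Apoa1 UMIs and all those of Apoc3, Apoh and Apom, against 11.02% of all UMIs. Of the 3 Apob UMIs 66.7% lay in such barcodes, and the single Apod UMI did not. Apoa4, a chylomicron and HDL protein, gave 0 UMIs in ntCZC, and its pooled level in tissue was at least 1.89-fold higher than the 0.224 CPM that 3 counts over all ntCZC libraries would give. In tissue it totalled 197 UMIs. The pooled tissue over ntCZC ratio of Apom, on 1 ntCZC UMI, was 501 (95% interval 89.9 to 19797, counting error only).

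**Figure D1:**
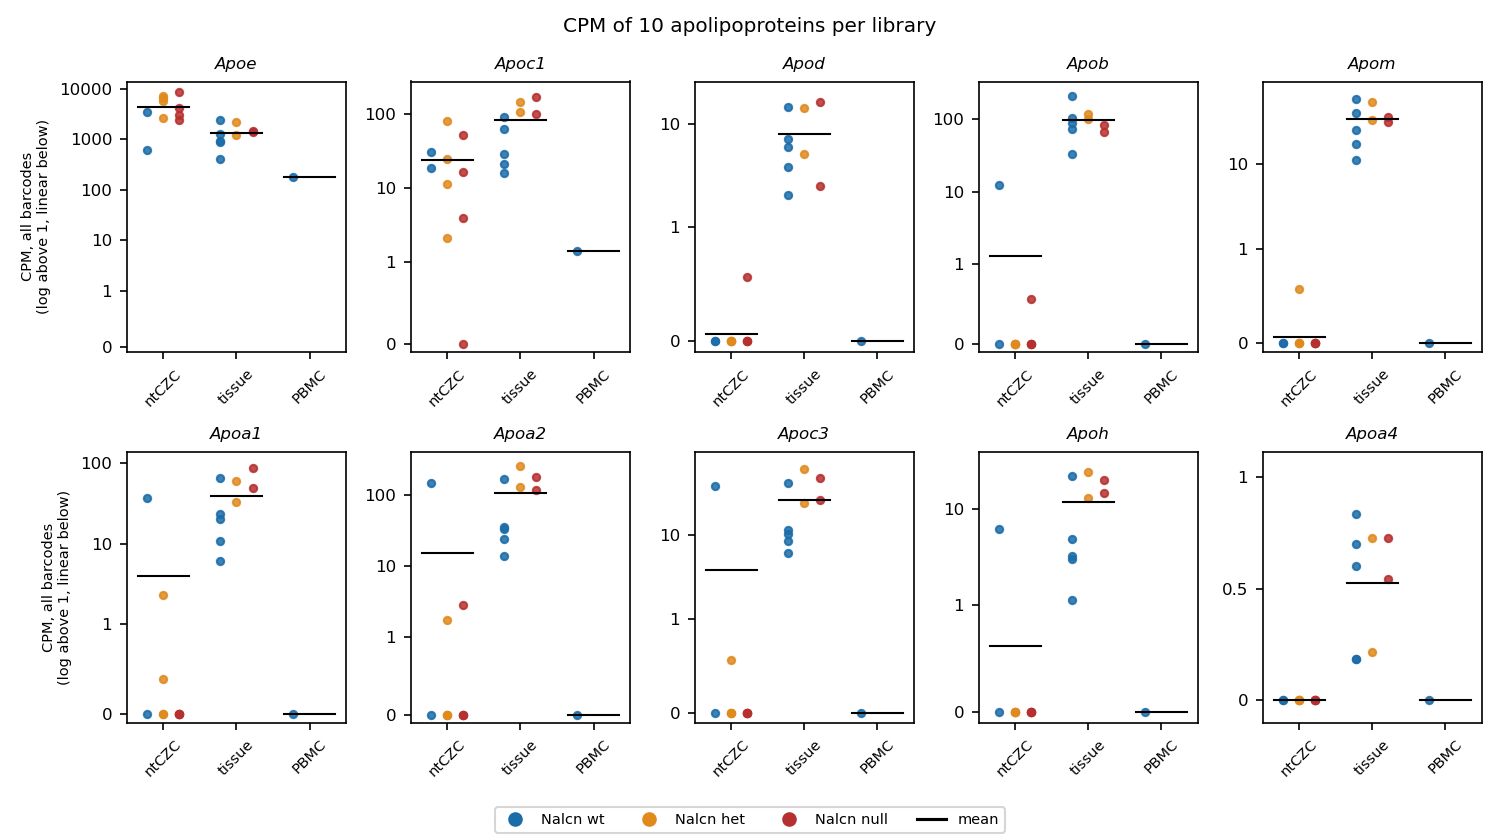
CPM of each member over all barcodes of a library (y axis, logarithmic above 1 and linear below) in ntCZC, tissue and PBMC libraries. Points are libraries coloured by Nalcn genotype and lines are means. Apoe sits at 607 to 8730 CPM in ntCZC and 403 to 2368 CPM in tissue, and most ntCZC points of the hepatocyte-type members lie at 0.

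Lymphocytes make little of any member, so B cell-like and T cell-like barcodes were pooled as lymphocyte-like barcodes to read the free RNA of each tissue library. The summed level of 8 hepatocyte genes (Alb, Ttr, Serpina3k, Mup3, Fgb, Ahsg, Serpina1c and Hpx), called the hepatocyte index, was used for comparison. In these 7003 barcodes the index was 24.7, 61.8, 130 and 137 CPM in wt replicates 2, 4, 5 and 1. It was 296 and 376 CPM in the het, 402 and 424 CPM in the null, and 488 CPM in wt replicate 3. The index thus differed widely between tissue libraries, and 4 of 5 wt libraries lay below every het and null library.

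The hepatocyte-type members were mostly low and high in the same libraries. Apoa2 in lymphocyte-like barcodes was 11.2, 18.9, 18.6 and 57.2 CPM in wt replicates 2, 4, 5 and 1, 99.6 in wt replicate 3, 79.5 and 99.3 in het, and 94.7 and 115 CPM in null. Apoa1 ran from 4.57 CPM (wt replicate 2) to 91.5 CPM (null replicate 2). The log2 ratio of Apoa2 to the index spanned -2.62 to -1.13 over the 9 libraries, that of Apoa1 -3.72 to -2.12 and that of Apoc1 -3.36 to -1.97. Apoe followed another order: its lymphocyte-like level was highest, at 757 CPM, in wt replicate 2, where the index was lowest and 1693 macrophage-like barcodes were gated, and lowest, at 154 CPM, in wt replicate 4. Its log2 ratio to the index spanned 0.08 to 4.93. On average 43.6% of lymphocyte-like barcodes held an Apoe UMI, 11.5% an Apoa2 UMI, 6.54% an Apoc1 UMI and 0.36% an Apod UMI. These shares are the background for the shares of other classes. For Apoe that background was not even, since B cell-like barcodes exceeded T cell-like ones in 7 of 8 libraries (685 ± 321 and 354 ± 186 CPM). In the PBMC library, where no organ was dissociated, B cell-like barcodes held 118 CPM and T cell-like barcodes 1.69 CPM of Apoe, the latter from 1 UMI.

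**Figure D2:**
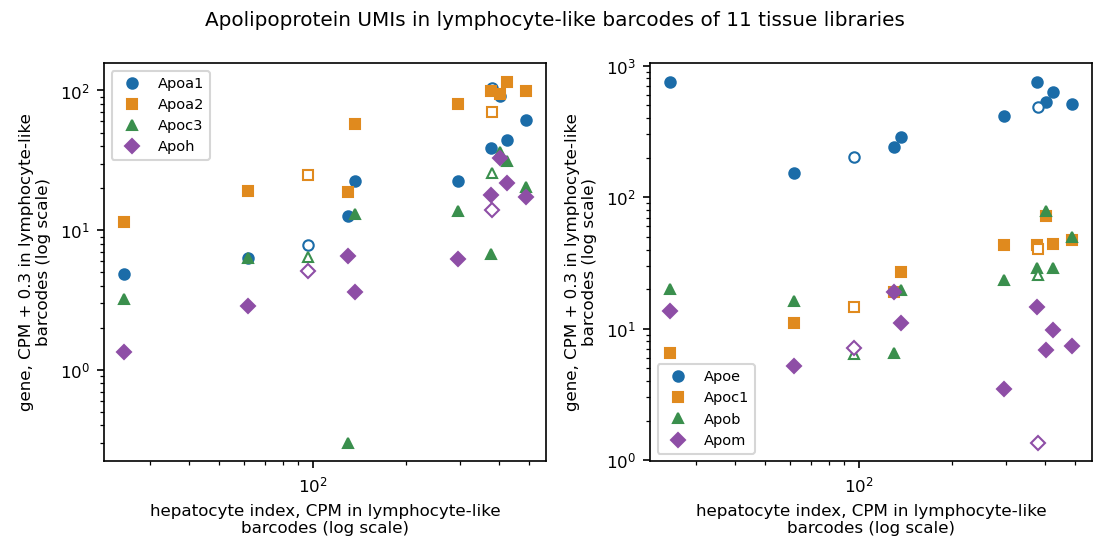
Level of 8 members in lymphocyte-like barcodes (y axis, CPM + 0.3, log scale) against the hepatocyte index in the same barcodes (x axis, CPM, log scale). Each point is a tissue library, and open points are the 2 libraries without a group. Apoa1, Apoa2 and Apoh are lowest in the library where the index is lowest, at 24.7 CPM, and Apoe, at 757 CPM, is highest there.

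Apoe was highest in macrophage-like barcodes. It stood at 5142, 9565, 7948, 5285 and 9699 CPM in the wt, 13177 and 19560 CPM in the het and 10365 and 22024 CPM in the null libraries (11418 ± 5899, n = 9), against 476 ± 218 CPM in lymphocyte-like barcodes. Every library was far above its own lymphocyte-like level. The difference within libraries was 4.70 on the log2 scale (SE 0.18, adjusted p = 3.0e-10, edgeR with library as a block), or 26.0-fold, and leaving out any library kept the call. Among all genes 29.8% were called higher in macrophage-like barcodes. Thinned to 1000 UMIs per barcode, 74.1% of macrophage-like and 27.0% of lymphocyte-like barcodes held Apoe (81.0% and 43.6% unthinned, mean of median depths 3167 and 2236 UMIs). Thinning left out 396 and 1082 barcodes that were too shallow. Macrophage-like barcodes held 35.7% of the Apoe UMIs of tissue and 5.21% of UMIs of all genes.

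Apoe levels overlapped between macrophage subsets, with no test made. Barcodes with at least 2 of Gpnmb, Spp1, Fabp5 and Mmp12 held 10735 ± 6866 CPM (n = 8), and macrophage-like barcodes in neither subset 10579 ± 6569 CPM (n = 9). Those with at least 2 of Clec4f, Cd5l, Timd4 and Vsig4 held 12025 ± 2203 CPM in the 3 libraries with 20 or more. Tissue wt replicate 2 supplied 1469 of the 1943 barcodes of the Gpnmb subset.

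Hepatocyte-like barcodes held 3063 to 5561 CPM of Apoe without the mitochondrial limit (n = 5). Within the limit only 1 library held enough of them, so they were not ranked. Among the ranked classes fibroblast-like barcodes came next, at 1420 to 5037 CPM (median 2707, n = 8), and mesothelial-like barcodes held 713 to 2901 CPM (n = 6). Apoe was 2.73 higher on the log2 scale than in lymphocyte-like barcodes in the former (SE 0.25, adjusted p = 7.2e-08; 29.7% of all genes were called higher) and 1.62 higher in the latter (SE 0.23, adjusted p = 2.8e-05; 27.2%), both by edgeR. All their libraries but mesothelial-like wt replicate 4 (713 CPM) lay above the highest lymphocyte-like level. Nonclassical monocyte-like (1669 to 4153 CPM, n = 7) and classical monocyte-like barcodes (962 to 2790 CPM, n = 8) differed by 2.20 (SE 0.21, adjusted p = 1.0e-08; 19.6% of genes higher) and 1.69 (SE 0.20, adjusted p = 1.8e-06; 25.9%). Kidney proximal tubule-like (530 to 1241 CPM, n = 8), epididymal-like (458 to 2473 CPM, n = 3) and endothelial-like barcodes (254 to 1373 CPM, n = 9) showed smaller differences of 1.08, 1.37 and 0.41, with adjusted p of 0.00013, 0.016 and 0.0091 and 34.7%, 28.1% and 34.4% of genes called higher. The epididymal-like call was lost without het replicate 2 (adjusted p = 0.068) or null replicate 2 (0.12), without the mitochondrial limit (0.12) and with Scrublet calls removed (0.091), and the endothelial-like call without the library block (0.38, adjusted p = 0.31, edgeR).

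Apoe was lower than the lymphocyte-like level in 4 classes. Gastric mucous-like barcodes held 35.5, 138, 65.7 and 34.9 CPM in 4 libraries (log2 difference -2.75, SE 0.37, adjusted p = 2.9e-05, edgeR; 29.5% of genes were called lower). Dendritic-like barcodes differed by -1.43 (22.4% of genes lower), mural-like barcodes by -1.12 (32.7%) and alveolar macrophage-like barcodes by -0.96 (SE 0.15, adjusted p = 0.00011; 33.8%). Alveolar macrophage-like barcodes, at 91.2 to 434 CPM in 8 libraries, lay below the other macrophage-like barcodes, with no overlap between the ranges. Relative to the hepatocyte index, however, their Apoe differed from lymphocyte-like barcodes by -0.07 on the log2 scale (higher in 3 of 8 libraries, exact sign-flip p = 0.38), and the median of the 8 members tested by CPM was -0.95. Thinned to 1000 UMIs, 17.7% of them held Apoe, against 27.0% of lymphocyte-like barcodes. Of the 20 classes tested against lymphocyte-like barcodes, Apoe was higher in 9 and lower in 4.

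In the order of Apoe levels, macrophage-like exceeded fibroblast-like barcodes in 8 of 8 libraries by a mean of 8603 CPM (exact two-sided sign-flip test p = 0.0078, the smallest that 8 libraries allow), and the ranges, 5142 to 22024 and 1420 to 5037 CPM, did not overlap. Of the 210 neighbour pairs of all members, some shared too few libraries for a test. Adjusted over the pairs tested, the sign-flip p was 0.80, the smallest of any pair. With these few libraries the adjusted test says little about neighbours in either direction.

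**Figure D3:**
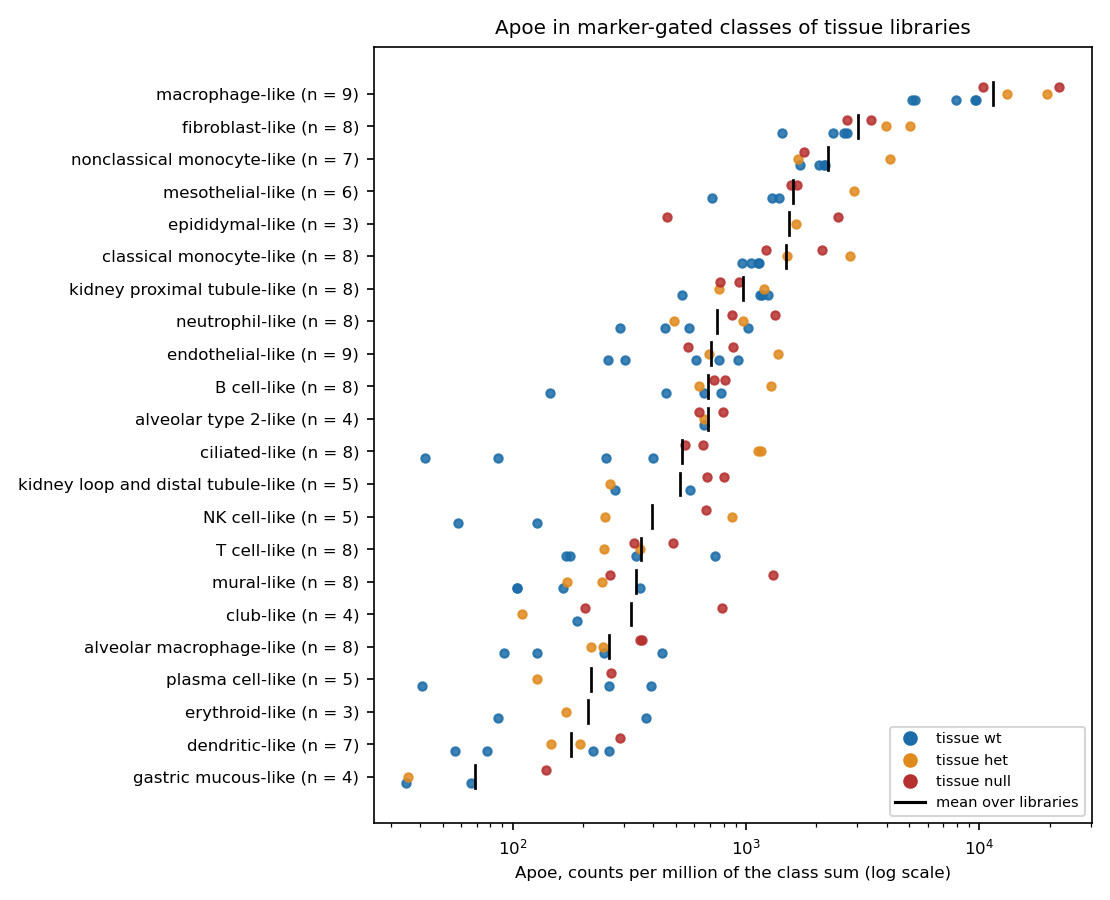
Apoe in each marker-gated class of the tissue libraries (x axis, CPM of the summed counts, log scale). Points are libraries coloured by genotype, black lines are means over the n libraries given. Macrophage-like barcodes lie at 5142 to 22024 CPM, alveolar macrophage-like barcodes at 91.2 to 434 CPM.

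In the circulating cells, Apoe UMIs lay mainly in macrophage-like and nonclassical monocyte-like barcodes. In ntCZC, macrophage-like barcodes held 52.6% of the Apoe UMIs and nonclassical monocyte-like barcodes 27.5%, with 14.5% and 29.4% of all UMIs. Macrophage-like barcodes numbered 20 or more in null replicate 1 (46 barcodes, 21568 CPM) and het replicate 3 (58 barcodes, 22550 CPM), near the highest tissue value of 22024 CPM. Their leading genes included Saa3, Retnla, C1qa and Prg4. Of the 93 ntCZC barcodes with at least 2 of Clec4f, Cd5l, Timd4 and Vsig4, none held Clec4f and 55.9% held Gata6, whereas of 180 such tissue barcodes 55.0% held Clec4f and 1.67% Gata6. The same 4-gene list therefore picked barcodes of unlike make-up. Apoe was found in 93.5% and 99.4% of them, Apoc1 in 10.8% and 56.7%.

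Nonclassical monocyte-like barcodes were common to both kinds of library. Apoe stood at 5327, 4767, 3590, 3383, 3013, 5680 and 3701 CPM in 7 ntCZC libraries and at 2152, 2047, 1669, 4153, 1777, 1702 and 2183 CPM in 7 tissue libraries. Of the tissue libraries, het replicate 2 (23 barcodes) alone reached into the ntCZC range. The difference was 0.72 on the log2 scale (SE 0.17, adjusted p = 0.0025, edgeR), or 1.64-fold, and 15.3% of genes tested were called higher in ntCZC. It was 0.63 to 0.89 with any library left out. Lymphocyte-like barcodes of ntCZC held 49.4 to 502 CPM of Apoe (7 libraries), so every nonclassical monocyte-like value was above the ntCZC background. Sorting on ZsGreen, blood against dissociated organ and library depth cannot be told apart from the difference.

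Apoc1 had another class pattern from Apoe, although the genes are neighbours. It was highest among non-hepatocyte barcodes in the subset with Clec4f, Cd5l, Timd4 or Vsig4, at 849, 1330 and 617 CPM in wt replicates 1, 3 and 5, against 34.6 ± 20.8 CPM in lymphocyte-like barcodes (n = 9). Macrophage-like barcodes of the Gpnmb subset held 4.72 to 41.5 CPM and those in neither subset 8.13 to 187 CPM. Over all macrophage-like barcodes the difference of 0.95 from lymphocyte-like barcodes (SE 0.37, adjusted p = 0.037, edgeR) was lost without any of 5 libraries, null replicate 3 and wt replicates 1, 3, 4 and 5 (highest adjusted p 0.11), and without the mitochondrial limit (0.72, adjusted p = 0.054), and wt replicate 5, at 460 CPM, held the highest value. The Apoc1 mean fell from 109 to 65 CPM without it.

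Epithelial classes also held Apoc1. Epididymal-like barcodes stood at 410, 824 and 403 CPM in het replicate 2, null replicate 2 and null replicate 3 (log2 difference 3.73, SE 0.23, adjusted p = 4.2e-06, edgeR). Alveolar type 2-like barcodes stood at 239, 295, 228 and 307 CPM (3.51, SE 0.43, adjusted p = 2.1e-06; 14.9% of genes were called higher). Both classes lay above every lymphocyte-like value in all their libraries. Alveolar macrophage-like barcodes held 46.1 to 99.0 CPM in 8 libraries (1.18, SE 0.33, adjusted p = 0.0061; 32.9% higher; not called without the mitochondrial limit, at 0.75 and adjusted p = 0.064, edgeR), and relative to the hepatocyte index they were higher in 8 of 8. The club-like call (1.10, adjusted p = 0.038; 12.7% higher) rested on 32 UMIs and was lost with DESeq2 (adjusted p = 0.083), without the filter on low counts (0.39), without the mitochondrial limit (0.077) or without wt replicate 2, het replicate 1 or null replicate 3. Apoc1 was called higher in 6 of the 18 classes in which it could be tested.

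Apod was highest in fibroblast-like barcodes. Fibroblast-like barcodes held 249, 123, 493.1 and 582 CPM in wt replicates 1 to 4, 502 and 288 CPM in het, and 23.1 and 465 CPM in null, against 0 to 8.54 CPM in lymphocyte-like barcodes. Null replicate 2 (4 UMIs in 142 barcodes) was far below the others but still above its own background of 0. The fitted log2 difference was 7.34 (SE 0.35), a description only, since Apod passed the filter on low counts through the class in which it was high. The share of fibroblast-like barcodes with Apod was 2.82% to 35.5% by library, and the mean was 19.7% against 0.36% in lymphocyte-like barcodes. Fibroblast-like barcodes were the only class in which Apod passed the filter on low counts, and its next highest mean was 19.4 CPM in epididymal-like barcodes.

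Apob and Apom were high in kidney proximal tubule-like barcodes. Apom stood at 214, 178, 135 and 229 CPM in wt replicates 1 to 4, 209 and 321 CPM in het, and 258 and 146 CPM in null (211 ± 60.4, n = 8), against 9.81 ± 4.97 CPM in lymphocyte-like barcodes. Apob stood at 230, 165, 226 and 172 CPM in wt, 280 and 110 CPM in het, and 134 and 228 CPM in null (193 ± 57.1), against 29.96 ± 21.7 CPM. For both, every library exceeded its own lymphocyte-like value. The log2 difference of Apob was 2.84 (SE 0.28, adjusted p = 7.7e-07, edgeR). That of Apom was 4.66 (SE 0.25), a description only, since Apom was tested in 4 of 20 classes and passed the filter on low counts here through the class in which it was high. Relative to the hepatocyte index both were higher in 8 of 8 libraries, Apom by 3.94 and Apob by 2.01 on the log2 scale. Barcodes that failed the filter held 83.8% of the Apob UMIs and 74.6% of the Apom UMIs of tissue, against 44.0% of all UMIs.

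Without the mitochondrial limit, kidney proximal tubule-like barcodes rose from 1512 in 8 libraries to 9222 in 9, and Apom stood at 125 to 233 CPM and Apob at 152 to 455 CPM. Hepatocyte-like barcodes could be followed only in that setting, since 60 passed the limit and only het replicate 1 held 20 or more of them (22). Without the limit, 392 hepatocyte-like barcodes in 5 libraries held 21.7 to 42.9 CPM of Apom, below each kidney proximal tubule-like library. They held 424 to 1001 CPM of Apob, and in each of the 5 libraries more than its kidney proximal tubule-like barcodes except het replicate 1. Apoh, the phospholipid-binding beta-2-glycoprotein I, stood at 209 to 501 CPM in them and Apoc3 at 613 to 1659 CPM. Apod gave 0 UMIs. In het replicate 1, Apoa2 was 3254 CPM in the 90 hepatocyte-like barcodes without the limit, below its level in the 22 within it. Whether Apom and the other levels given here are lowered likewise was not tested.

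**Figure D4:**
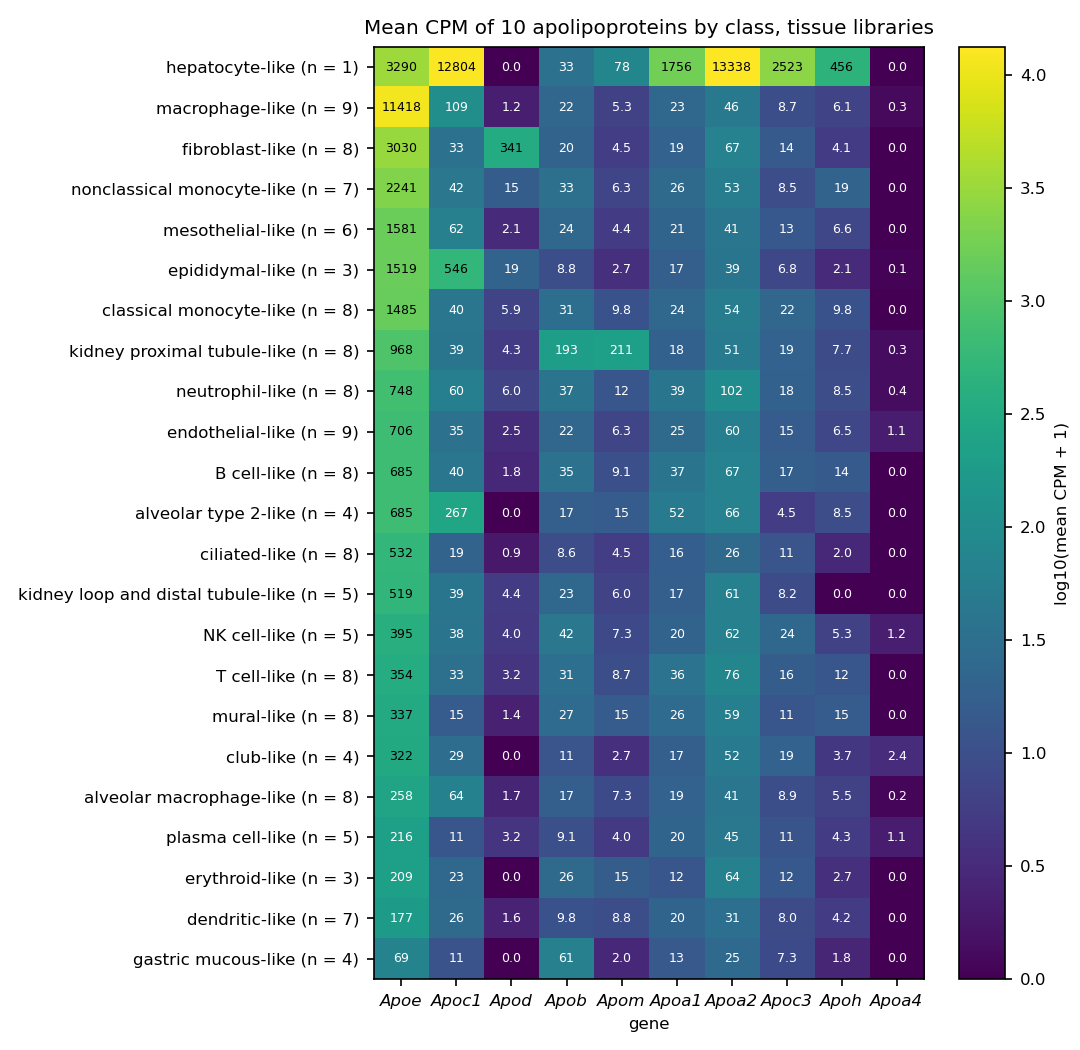
Mean CPM over libraries of the 10 members (columns) in the hepatocyte-like barcodes of 1 library and in 22 classes held by 3 or more tissue libraries (rows). Colour is log10(mean CPM + 1). Apoe is high in the macrophage-like row (11418), Apod in the fibroblast-like row (341), Apob and Apom in the kidney proximal tubule-like row (193 and 211), and Apoa1 and Apoa2 in the hepatocyte-like row (1756 and 13338).

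Apoa1 and Apoa2 lay near the lymphocyte-like ratio to the index in some classes and away from it in others. Relative to the index, their mean difference from lymphocyte-like barcodes in the same library was -0.03 and 0.03 on the log2 scale in macrophage-like, -0.06 and 0.05 in endothelial-like, and -0.07 and -0.10 in alveolar macrophage-like barcodes. In kidney proximal tubule-like barcodes it was -1.64 and -1.08, lower in 7 of 8 libraries for each. In gastric mucous-like barcodes it was -1.24 and -0.67, lower in 4 of 4 libraries, and in plasma cell-like barcodes Apoa2 was at 0.65, higher in 5 of 5. The largest positive mean among classes with at least 10 UMIs of Apoa1 shown in the plot of ratios was 0.99 in alveolar type 2-like barcodes, from 12 UMIs. Of 200 such ratios over members and classes none passed after adjustment (exact two-sided sign-flip tests, smallest adjusted p = 0.10), among them Apoe in macrophage-like barcodes (5.20, higher in 9 of 9 libraries, p = 0.0039, the smallest 9 libraries allow). The value for Apod in fibroblast-like barcodes was 7.23 (8 of 8 libraries, exact sign-flip p = 0.0078 before adjustment).

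**Figure D5:**
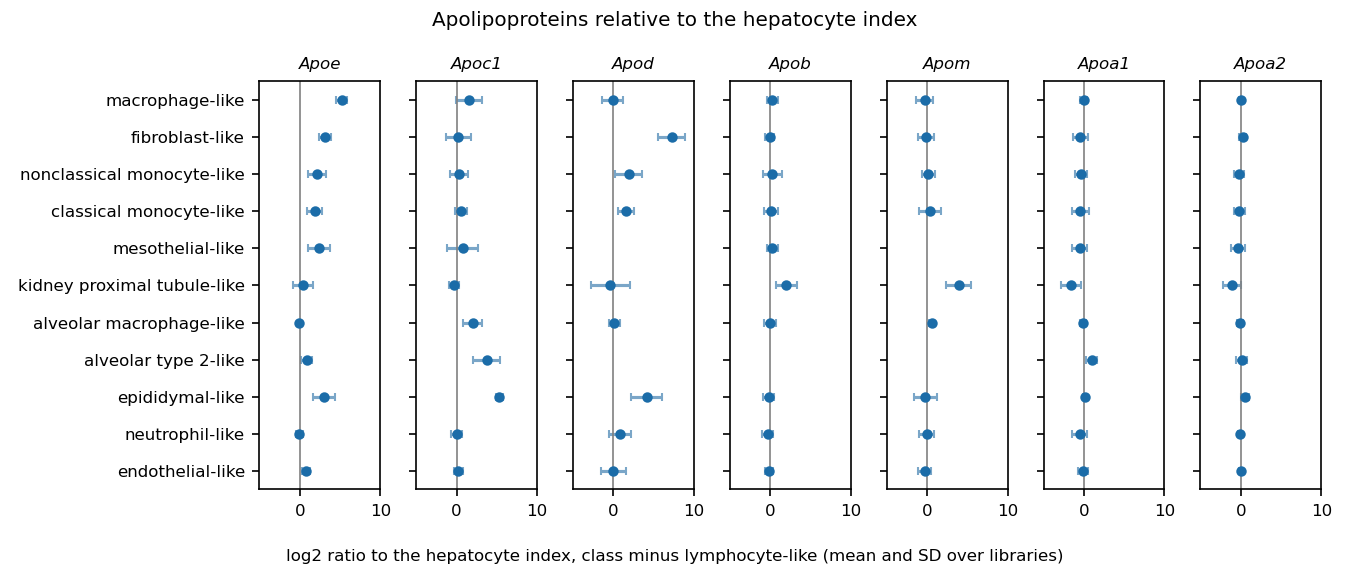
Log2 ratio of 7 members to the hepatocyte index in a class minus that in lymphocyte-like barcodes of the same library (x axis), as mean and SD over libraries, for 11 classes with at least 10 UMIs of the member. Apoa1 and Apoa2 lie at -0.03 and 0.03 in macrophage-like and at -1.64 and -1.08 in kidney proximal tubule-like barcodes, and Apoe lies at 5.20 in macrophage-like and 3.08 in fibroblast-like barcodes.

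By CPM and library-block fits, Apoa1 and Apoa2 were lower than in lymphocyte-like barcodes in part of the classes. Apoa2 was lower in 10 of 20 classes, Apoa1 in 7 of 16 and Apob in 5 of 14. In classes with a lower call, 22.4% to 38.9% of all genes were called lower. Apoh was lower in 3 of 3 classes. It may have passed the filter on low counts there only through lymphocyte-like barcodes, so nothing is read from its count. For macrophage-like barcodes the Apoa2 difference was -0.51 (SE 0.14, adjusted p = 0.0050, edgeR; 30.3% of genes were called lower), and for endothelial-like barcodes -0.37 (31.8% lower). Without the library block both calls were lost (adjusted p = 0.47 and 0.69), as were 7 of the 10 lower calls of Apoa2 and 5 of the 7 of Apoa1 in all. Ciliated-like barcodes held the lowest Apoa2 values relative to background, at -1.93 (33.7% lower), followed by gastric mucous-like barcodes at -1.64. Relative to the hepatocyte index the ciliated-like direction turned, to 0.19 for Apoa2 (higher in 6 of 8 libraries) and 0.40 for Apoa1 (7 of 8). Lower calls stood beside 27.3% of genes called lower in epididymal-like, 30% in fibroblast-like, 38.9% in kidney proximal tubule-like and 30.2% in mesothelial-like barcodes. The mean of median UMIs was 5192 in ciliated-like, 8131 in gastric mucous-like and 2236 in lymphocyte-like barcodes, and the part of depth was not tested.

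Neutrophil-like barcodes, the shallowest class named here (mean of median UMIs 1230), showed the reverse. Apoa1, Apoa2, Apob, Apoc1 and Apoe, all 5 members tested, were higher by 0.69 to 1.14 on the log2 scale, where 28.9% of genes were called higher. Without the filter on low counts the calls of Apoa1 (0.48, adjusted p = 0.14, edgeR) and Apob (0.58, adjusted p = 0.052) were lost, and without the library block those of Apoa1, Apoa2 and Apoc1 (adjusted p = 0.37, 0.094 and 0.060). Apoa2 stood at 18.0 to 161 CPM in 8 libraries, against 11.2 to 115 CPM in lymphocyte-like barcodes. Relative to the hepatocyte index the same 5 members differed by -0.53 (Apoa1) to -0.0044 (Apoc1), and the smallest unadjusted p of their exact sign-flip tests was 0.14. In erythroid-like barcodes Apoa2, Apob and Apom were called higher (2.28, 2.33 and 3.06; 2.38% of genes were called higher), yet Apoa2 at 32.8, 15.5 and 144 CPM in wt replicate 1, wt replicate 2 and het replicate 1 stood beside 57.2, 11.2 and 79.5 CPM in lymphocyte-like barcodes. These 3 calls rested on 40, 20 and 17 UMIs in 3 libraries and were lost without wt replicate 1 or het replicate 1, that of Apob also without wt replicate 2. All 3 were lost with a gate of at least 4 markers, and those of Apoa2 and Apob without the filter on low counts. Over all classes, 100 pairs of member and class were tested, 24 were called higher and 30 lower. Of all genes, 2.38% to 34.7% were called higher in the classes with a higher call. In those with a lower call 22.4% to 38.9% were called lower, so nothing is read from these counts.

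No member was called different between Nalcn genotypes. In ntCZC, Apoe was 2042 ± 2030 CPM in wt (n = 2), 5489 ± 1986 in het (n = 4) and 4559 ± 2874 in null libraries (n = 4). The wt value rested on replicate 1 at 3478 and replicate 3, the library of lowest quality, at 607 CPM, and the genotypes overlapped. The log2 difference was 0.96 for het against wt (SE 0.57, adjusted p = 0.70, 95% interval -0.15 to 2.08) and 0.72 for null against wt (SE 0.65, adjusted p = 0.98, edgeR). Of all genes 0.107% were called in the former, 0% in the latter and 0% for null against het. Of 6 member tests in these contrasts 0 had an unadjusted p below 0.05, with edgeR as with DESeq2.

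In tissue, Apoe over all barcodes was 1168 ± 736 CPM in wt (n = 5), 1719 ± 687 in het (n = 2) and 1410 ± 44.1 in null libraries (n = 2). The log2 differences from wt were 0.36 for het (SE 0.66) and 0.08 for null (SE 0.63), with 0% and 0.0112% of genes called. Their sign turned under other settings. Within macrophage-like barcodes the values above gave 1.15 for het (SE 0.45, unadjusted p = 0.028 in the model of all genes, adjusted p = 1.0, edgeR) and 0.97 for null (SE 0.44, adjusted p = 1.0), with 0.0114% and 0.0911% of genes called. All 4 het and null libraries lay above every wt library in macrophage-like Apoe, but the test called no difference. How many of all genes separate the libraries in this way was not counted, so nothing is read from it. In fibroblast-like barcodes Apoe differed by 1.02 for het (SE 0.28, adjusted p = 0.51) and 0.40 for null, in endothelial-like barcodes by 0.65 and 0.74 and in kidney proximal tubule-like barcodes by -0.20 and 0.02, with 0% of genes called in each of these 6 comparisons.

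Hepatocyte-type members were not called between tissue genotypes either. In endothelial-like barcodes of null against wt, Apoa1 differed by 2.11 (SE 0.80), Apoa2 by 2.04 (SE 0.69) and Apoc1 by 2.29 (SE 0.56), and in kidney proximal tubule-like barcodes Apoa1 by 3.34 (SE 0.58, adjusted p = 0.20, edgeR). The index in lymphocyte-like barcodes was 402 and 424 CPM in the null libraries and 24.7 to 488 CPM in wt, so free hepatocyte RNA and genotype cannot be told apart for these members. Over the 5 populations, 14 of 72 member tests had an unadjusted p below 0.05 with edgeR and 20 with DESeq2. Either tool called 0. For null against wt with edgeR, 0 of 10 members and 1621 of 17863 genes had such a p over all barcodes. In macrophage-like barcodes it was 0 of 6 and 375 of 8786, and in endothelial-like ones 5 of 9 and 737 of 12318. In fibroblast-like barcodes it was 2 of 4 and 127 of 3589, and in kidney proximal tubule-like ones 3 of 7 and 228 of 6831. Members that share free hepatocyte RNA are not independent tests.

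Genes that share the members' route were counted from 4 lists. In macrophage-like barcodes against lymphocyte-like ones, 8 of 12 genes of cholesterol export and sterol control were higher and 2 lower, where 29.8% and 30.3% of all genes were (median log2 difference 1.03, against -0.02 over all genes). Cyp27a1, a sterol hydroxylase, was higher by 3.38, Nr1h3, the LXR alpha receptor that induces Apoe, by 3.20, and Abca1, which loads cholesterol onto apolipoproteins, by 2.40, while Srebf2, which drives sterol synthesis, was lower (-0.83). Among lipoprotein receptors, Lrp1 (3.74), Cd36 (3.51) and Scarb1 (1.63) were higher and Sorl1 and Lrp2 lower, and Lpl (4.50) and Pltp (3.91) were higher among 3 genes of particle assembly and plasma enzymes. In kidney proximal tubule-like barcodes, Lrp2 (4.29) and Cubn (4.26), the receptors that reclaim filtered apolipoproteins, and Mttp (2.30), which loads lipid onto Apob, were higher, and 7 of 10 genes of export and sterol control were lower, where 38.9% of all genes were. In fibroblast-like barcodes Lrp1 (5.14), Vldlr (4.91), Lpl (4.08) and Pltp (3.66) were higher. Alveolar macrophage-like barcodes, where Apoe was lower by CPM than in lymphocyte-like ones, had 7 of 11 export and sterol control genes higher and 1 lower. Abcg1, Nr1h3 and Soat1 led those higher (median log2 difference 0.89, against -0.05 over all genes). Of all genes 32.9% were called higher there and 33.8% lower.

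Between ntCZC and tissue, Lrp1 (1.66), Scarb1 (0.91) and Sorl1 (0.78) were higher among the receptors, and 5 were lower (Lrp2 by -10.8, Cubn by -7.97 and Amn by -7.45 among them). Of 5 assembly and plasma genes Pltp was higher (0.97) and 4 were lower, led by Gpihbp1 (-5.08), the endothelial anchor of lipoprotein lipase. Over all genes 28.5% were called higher and 36% lower, and genes detected mainly in tissue may have passed the filter on low counts only there, so nothing is read from the lower counts. Saa3 was higher by 5.87 and Clu lower by -6.93, the 2 tested genes of a list of other apolipoproteins.

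Genes were ranked by the correlation of their mean levels with each member over the 23 tissue classes, as a description. Closest to Apoe were Fcna (Pearson r = 0.72), Rab11fip5 and Zfand5. Apoa1 and Apoa2 lay closest to hepatocyte genes such as Sds and Alb (0.96 for the closest of each), and Apoc3 to Sult2a7 (0.96). Apom was closest to Prodh2 (0.93), Cyp2j5 and Glyat, and Apob to Cubn (0.86), both sets led by genes of proximal tubule. Apod lay closest to Aldh1a3 (0.82), Pdgfra, a gate marker, and Tnfaip6. Among members, Apoa1 and Apoa2 had r = 0.96 and Apoe and Apoc1 0.55. These classes share libraries, depth and free RNA.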

How the data were processed

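Libraries were made by the authors with 10x Chromium 3' v3 chemistry, aligned to mm10 with Cell Ranger and deposited as filtered matrices of whole UMI counts per gene and barcode. The matrix headers name Cell Ranger 3.0.2, the submitters' processing notes 2.1.1. Hashtag demultiplexing was not used here.

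The filter kept barcodes of 200 or more genes whose mitochondrial share of UMIs was up to 25%. A class needed at least 3 of its 6 markers and 2 more than of any other class. Only classes with at least 20 barcodes in a library were used. CPM was the member's count over all UMIs of the library or class. Doublets were marked with Scrublet only as an alternative.

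Summed counts were tested with edgeR 4.0.16 (TMM, filterByExpr, quasi-likelihood, Benjamini-Hochberg over all genes tested, threshold 0.05), with DESeq2 1.42.0 as an alternative. Class comparisons had library as a block, ntCZC and genotype comparisons sex as a covariate. Intervals for single values are exact (95%) and cover counting error only; 3 counts stood for a count of 0. Ratios to the index had 0.5 counts added. Within a kind of library, same-numbered libraries of different genotypes did not pair. Correlations of deviations were -0.25 to 0.26 over 8 ntCZC pairs and -0.50 to 0.02 over 5 tissue pairs. Pairing between ntCZC and tissue libraries was not examined, and their main fit had no such block. Some could come from the same mouse: ntCZC and tissue wt replicate 1 were both male at 571 days.

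All 10 members were named in every comparison, from 4 pathway lists (42 genes) the counts called and up to 3 genes per direction (some are not reported here), and for each member the 3 most correlated genes with a mean of at least 5 CPM. Members and lists were chosen with earlier results of these data known. On simulated counts with 200 genes changed 4-fold, 93.5% were recovered for ntCZC against tissue, 84% for macrophage-like against lymphocyte-like and 32.5% for genotype within macrophage-like barcodes.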

Additional observations from a re-analysis of the deposited data

Results flagged for a closer look

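In tissue wt replicate 3, 3 hepatocyte-type members stood apart from the other 4 wt libraries over all barcodes. Apoa2 was 169 CPM, with the nearest wt library at 36.1 CPM. Apoc3 was 40.7 CPM, with the nearest at 11.4 CPM, and Apoh was 22.005 CPM, with the nearest at 4.90 CPM. Each gap exceeded Dixon's critical value for 5 samples, and chance exceeds such a value in about 1 of 20 groups; 20 were examined. The hepatocyte index in lymphocyte-like barcodes of this library, 488 CPM, was also the highest of the tissue libraries with a group, and 66 hepatocyte-like barcodes were gated in it without the mitochondrial limit. The part of free hepatocyte RNA in these values was not tested.

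Tissue library 3 without a group (male, 610 days), which entered no comparison, held Apoa4 at 69.2 CPM over all barcodes, against at most 0.834 CPM in any tissue library with a group. Its 1753 Apoa4 UMIs compared with 197 over all 9 of those libraries.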

How the results depend on the processing

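Of the called members, Apoe in ntCZC against tissue (1.33 to 1.78 on the log2 scale) and in macrophage-like barcodes kept direction and call under every alternative run. In classes against lymphocyte-like barcodes 54 of 100 pairs were called, 31 without the replicate block by library, and 88 of 137 tested without the mitochondrial limit. In the genotype comparisons of tissue the replicate block, by a number that did not pair the libraries, gave 4 calls and no filter on low counts gave 7, where the main design gave 0. No filter gave 1 call for ntCZC genotypes and 9 for nonclassical monocyte-like barcodes. The cause of these shifts was not tested, apart from the larger number of pairs tested without the limit or filter.

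The Apoe difference over all tissue barcodes turned sign without het replicate 2 for het (-0.32), and for null with the replicate block (-0.86), in passing barcodes alone (-0.043), and without null replicate 3 (-0.17), wt replicate 3 (-0.0162) or wt replicate 4 (-0.23); with 1 library left out it ran from -0.32 to 0.88 for het and -0.23 to 0.67 for null. Leaving out 1 library gave 7 to 9 calls for ntCZC against tissue, 1 for nonclassical monocyte-like barcodes, 0 to 2 for ntCZC genotypes (2, both of Apoa2, without wt replicate 1), 0 for tissue genotypes and 9 to 50 for the classes refitted without it (9 also in the main design for those 2 classes without wt replicate 5). Of the values for single members, 1264 were unchanged, 77 lost the call, 6 turned sign and 4 moved. The unchanged ones include mean CPM and shares of barcodes, which hold no call and stayed within their SD. They also include contrasts and ratios not called in the main design, which had no call to lose. Genotype contrasts within hepatocyte-like barcodes were not run. Groups of 2 libraries and classes with as few as 20 barcodes limit the genotype contrasts.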

Other observations

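The proportions of liver apolipoproteins differed in tissue library 3 without a group. Apoa1 gave 1.72 UMIs per Apoa2 UMI over all barcodes, against 0.234 to 0.651 in the 9 grouped tissue libraries. In hepatocyte-like barcodes without the mitochondrial limit the ratio was 2.20 in that library, from 318 barcodes, and 0.164 to 0.395 in the libraries with a group that held at least 20 Apoa2 UMIs there. Those barcodes held 1003 CPM of Apoa4 and 5149 CPM of Apoa1, where the other 5 libraries with 20 or more such barcodes held 0 to 6.85 CPM and 729 to 1123 CPM. Apom was 122 CPM in them, against 21.7 to 42.9 CPM. Apoa2, at 2342 CPM, was lower than in any of the 5 (2445 to 6272 CPM), and Apoc1, at 1150 CPM, lay within their range.

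The same library showed Apoa4 outside the hepatocyte-like class. Lymphocyte-like barcodes held 14 Apoa4 UMIs and 99 Apoa1 UMIs beside 66 of Apoa2, a ratio of 1.5 Apoa1 UMIs per Apoa2 UMI. In the lymphocyte-like barcodes of the libraries with a group no Apoa4 UMI was found. The other tissue library without a group, library 1, had 0.275 Apoa1 UMIs per Apoa2 UMI over all barcodes and 5 Apoa4 UMIs.

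In fibroblast-like barcodes of library 3 without a group, Apod was 781 CPM and 39.8% of barcodes held it, above the 23.1 to 582 CPM of the libraries with a group.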
